A study of Mus musculus with 8 samples.

Results

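Polycomb proteins and the enzymes of DNA methylation are the main keepers of gene silencing in blood-forming stem cells, and many of their genes are recurrently mutated in myeloid leukaemia. Polycomb repressive complex 2 (PRC2) methylates lysine 27 of histone H3 through its catalytic subunits Ezh1 and Ezh2, which need the partners Eed and Suz12. Polycomb repressive complex 1 (PRC1), with Bmi1 as one of its Polycomb ring finger subunits, ubiquitinates histone H2A, and Asxl1 is the cofactor of the enzyme that removes this ubiquitin. Dnmt1 copies DNA methylation onto the new strand after replication, Dnmt3a and Dnmt3b set it anew, and Tet2 oxidises methylcytosine on the way to its removal. The levels of these 10 transcripts are described here in hematopoietic stem cells (HSCs), the bone marrow cells that can renew the whole blood system.

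Total RNA of HSCs from the bone marrow of B6 mice was hybridised to 8 Agilent 1-colour arrays, 1 sample to an array. Both Nras alleles carried the G12D mutation in the 3 NrasG12D/G12D samples, 1 endogenous allele carried it in the 3 NrasG12D/+ samples, and neither did in the 2 Nras+/+ samples. NrasG12D is a mutant of the signalling GTPase Nras that is locked in its active, GTP-bound form, and the comparisons ask how HSCs with 2, 1 or no copies of it differ. The labels give neither the age of the mice nor the surface markers used to collect the cells, and they do not say whether each sample came from its own mouse, so the p-values reflect no more than the variation among these samples, which may be technical.

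The members were all probes that the array design names Ezh1, Ezh2, Eed, Suz12, Bmi1, Asxl1, Dnmt1, Dnmt3a, Dnmt3b or Tet2. This gave 15 probes of 9 genes, out of 41174 probes and 27600 gene names. No probe carries the name Tet2 in the files, but 2 probes under an older clone name match Tet2 by accession, and they are described beside the others as an addition to the name rule. Probes entered the test where 2 or more arrays showed them well above background, and a gene with several such probes was represented by its brightest. Under this filter 7 of the 10 genes were tested, namely Ezh2, Eed, Bmi1, Asxl1, Dnmt1, Dnmt3a and Tet2. Ezh1, Suz12 and Dnmt3b were not.

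The samples as a whole set limits on what can be read. The share of spots well above background ranged from 26% to 42.4% per array, no spot was saturated, and log2 changes had median standard errors of 0.96, 0.97 and 0.87 in the 3 comparisons. Among the HSC markers, Ly6a and Slamf1 were above background on 8 arrays and Meis1 on 7, but Cd34 was on 3, Kit, Hlf and Mecom on 1 each, and Procr, Gata2 and Tek on none. Slide 1 held both Nras+/+ arrays and NrasG12D/+ replicates 1 and 2, and slide 2 held NrasG12D/+ replicate 3 and all NrasG12D/G12D arrays, so no slide held both NrasG12D/G12D and Nras+/+, and their difference with the slide as a block rests on the NrasG12D/+ arrays. NrasG12D/+ replicate 1 stood apart: its signal was 58100 for Mpo, a granule enzyme of myeloid progenitors (45.6 to 1560 on the other arrays), 25200 for S100a9 of neutrophils (2.29 to 11.4 on the others), and 44200 for Mcm5, a subunit of the replicative helicase (3.75 to 23.3 on the others).

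Where a transcript is probed at several places, the probes often read differently, so the probe sequences that carry the values below are given here. Each probe is 60 bases long, in lower case 5′ to 3′ as the deposited files hold it. For Bmi1 A_52_P39157, Asxl1 A_52_P549405 and Dnmt3a A_52_P169048 the first 30 bases are shown.
Ezh2 probe A_51_P248067: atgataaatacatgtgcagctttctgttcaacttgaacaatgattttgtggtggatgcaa
Eed probe A_51_P238643: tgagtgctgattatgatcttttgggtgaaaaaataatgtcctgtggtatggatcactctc
Bmi1 probe A_51_P121547: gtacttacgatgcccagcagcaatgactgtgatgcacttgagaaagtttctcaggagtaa
Bmi1 probe A_52_P39157: tggtgaatttaactcatttttctagacttt
Asxl1 probe A_52_P123238: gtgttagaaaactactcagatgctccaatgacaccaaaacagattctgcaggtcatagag
Asxl1 probe A_52_P549405: catcactgtccttacaaatgttcgctgaca
Dnmt1 probe A_51_P195573: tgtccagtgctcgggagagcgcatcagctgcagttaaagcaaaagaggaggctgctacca
Dnmt3a probe A_52_P76146: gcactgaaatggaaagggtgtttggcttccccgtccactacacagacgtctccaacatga
Dnmt3a probe A_52_P169048: ctatatatctctttggttgtctctagcctg
These probes lie, in the coordinates of the files, which state no genome build, on chromosome 6 from 47461634 to 47462529 (Ezh2), on chromosome 7 from 89840003 to 89842912 (Eed) and on chromosome 9 from 20657931 to 20658299 (Dnmt1). The brightest Dnmt3a probe spans 3906882 to 3907663 on chromosome 12. These 4 spans exceed the probe length of 60 bases. The second Dnmt3a probe lies at 3908241 to 3908300. The Bmi1 probes start at base 950 and base 3324 of the transcript, at 18601433 to 18601492 and 18604114 to 18604173 of chromosome 2. The Asxl1 probes shown start at bases 252 and 4570, at 153043630 to 153043689 and 153093345 to 153093404 of the same chromosome.

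Most member probes were not well above background on every array, and neither were most probes of the array design. Of the 15 probes, 2 were well above background on all 8 arrays, 8 on 1 to 7 arrays and 5 on none, while among all probes 16% were above background on all 8 arrays and 43.3% on none. The probes above on every array were Bmi1 A_52_P39157 and Dnmt3a A_52_P76146. Counting the 10 genes by any of their probes, 5, 2 and 2 were detected on the NrasG12D/G12D arrays, 8, 4 and 3 on the NrasG12D/+ arrays, and 4 and 4 on the Nras+/+ arrays, in order of replicate number. The array with 8 detected members was NrasG12D/+ replicate 1.

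**Figure D1:**
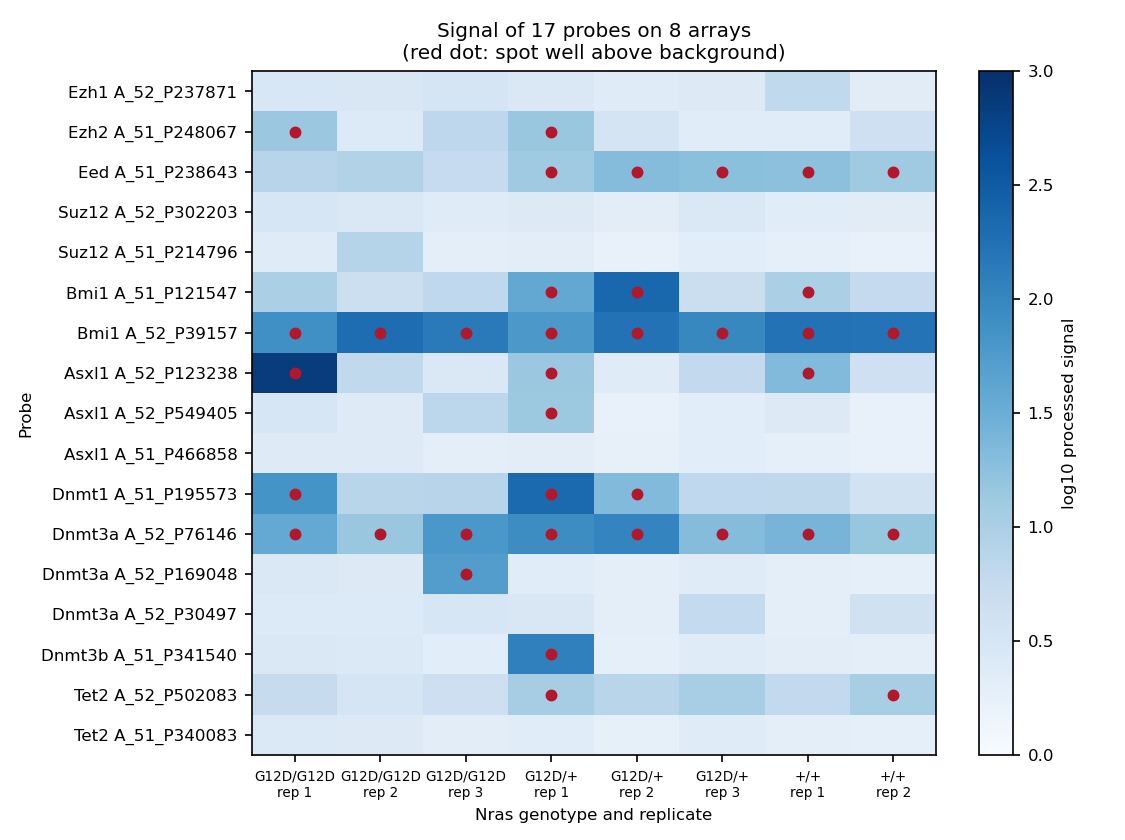
Processed signal, on a log10 colour scale without scaling between arrays, of the 15 probes and the 2 Tet2 probes (rows) on the 8 arrays (columns). Red dots mark spots well above background: only Bmi1 A_52_P39157 and Dnmt3a A_52_P76146 have them in all columns.

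No member passed the adjusted threshold in any comparison, and neither did any other gene. By limma with Benjamini-Hochberg adjustment over 15076, 15017 and 15023 genes, 0 genes had an adjusted p under 0.05 (percent called 0 in each of NrasG12D/+ against Nras+/+, NrasG12D/G12D against Nras+/+ and NrasG12D/G12D against NrasG12D/+). At an unadjusted p under 0.05 there were 709, 972 and 893 genes, and none of them was a member in the probe tested. Of all genes, 2.31% passed it upward and 2.39% downward in the first comparison, 1.33% and 5.15% in the second, and 1.62% and 4.33% in the third. The mean was higher in the first-named genotype for 3 of 7 members in the first comparison, where 41.7% of all genes were higher. It was higher for 4 of 6 in the second, beside 35.5% of all genes, and for 2 of 6 in the third, beside 42.3%. Changes below are on the log2 scale after scaling each array to its 75th percentile, and the median change over all genes was -0.26, -0.44 and -0.20. In these bulk samples, fewer cells of a type and less RNA per cell cannot be told apart.

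Within PRC2, the transcript of the scaffold subunit Eed was the one whose detection split by genotype. Its signal was 7.60, 8.55 and 5.53 on the NrasG12D/G12D arrays, none of them well above background, against 12.7, 20.0 and 18.2 in NrasG12D/+ and 17.7 and 12.7 in Nras+/+, all of them above background. All 3 unscaled NrasG12D/G12D signals thus lay below all 5 others, on arrays whose 75th percentile ranged from 115 to 355. The share of all genes with such a split was not computed. Detection floors also differed between arrays. Scaled Eed was -4.10 on NrasG12D/G12D replicate 2, not above background, and -4.80 on NrasG12D/+ replicate 1, above it. The lowest detected levels on these arrays were -3.70 and -5.13. On the scaled log2 axis Eed averaged -4.78 ± 0.59 in NrasG12D/G12D (SD, n = 3), -3.79 ± 1.0 in NrasG12D/+ (n = 3) and -3.31 ± 0.18 in Nras+/+ (n = 2).

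The scaled NrasG12D/G12D values of Eed did not overlap those of Nras+/+, as for 23% of all genes in that direction, but did overlap those of NrasG12D/+. The fitted change was -1.48 (SE 0.81, limma adjusted p = 0.726) against Nras+/+, at least 1.86-fold lower. Against NrasG12D/+ it was -0.99 (SE 0.72, limma adjusted p = 0.842), at least 1.33-fold lower. Such a bound sets the brighter genotype's mean against the detection floor of each array, or the dim probe's own signal where that is higher. Here all arrays of the brighter genotype were above background. Where some were not, their own signals still entered its mean, and the value is called a floor-based fold below, which is no lower bound. NrasG12D/+ differed from Nras+/+ by -0.49 (SE 0.81), and by 0.02 without NrasG12D/+ replicate 1. With the slide as a block the change in NrasG12D/G12D was -2.94 against Nras+/+ and -1.97 against NrasG12D/+, the second also being the value within slide 2. The blocked value against Nras+/+ had the lowest adjusted p of any member in any alternative (0.544, shared with Tet2). With normexp background correction the changes were smaller than the bounds above: -0.50 against Nras+/+ and -0.0058 against NrasG12D/+.

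Ezh2, the catalytic subunit most abundant in dividing cells, was above background on 1 array of each mutant genotype. Its signal was 13.9, 2.54 and 6.78 in NrasG12D/G12D, 14.4, 3.44 and 2.23 in NrasG12D/+, and 2.24 and 4.17 in Nras+/+. Replicate 1 was the detected array in both mutant genotypes, and the groups overlapped throughout. The fitted changes were 0.62 (SE 0.89) in NrasG12D/G12D and 0.01 (SE 0.89) in NrasG12D/+, each against Nras+/+, with limma adjusted p of 0.85 and 0.997. Both turned below 0 without Nras+/+ replicate 1 (-0.19 and -0.80), and the second also did without NrasG12D/+ replicate 1 (-0.47).

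The other PRC2 members gave no level above background. Ezh1, the catalytic subunit more typical of resting cells, had signals of 2.85 to 3.22 in NrasG12D/G12D, 2.26 to 2.75 in NrasG12D/+, and 6.22 and 2.16 in Nras+/+. The 2 probes of Suz12, which stabilises the complex, had signals of 1.92 to 7.95 in NrasG12D/G12D, 1.66 to 2.77 in NrasG12D/+ and 1.68 to 2.24 in Nras+/+. On these arrays a signal in that range gives only an upper bound on the transcript.

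Bmi1, the PRC1 subunit long known to be needed for HSC self-renewal, was above background on every array by probe A_52_P39157, and its probes disagreed. That probe gave 77.7, 195 and 137 in NrasG12D/G12D, 61.6, 171 and 97.4 in NrasG12D/+, and 171 and 165 in Nras+/+. All 8 spots were well above background, but the scanner software marked the spot as an outlier on all 4 arrays of slide 2, that is NrasG12D/+ replicate 3 and all of NrasG12D/G12D. The marked spots were left out of the fit, so it holds no NrasG12D/G12D value for Bmi1, and the change in NrasG12D/+ rests on 2 arrays against 2: -1.78 (SE 1.03, limma adjusted p = 0.812). Those scaled values did not overlap, as for 16.3% of all genes in that direction. Most of those genes had no array missing, and 2 arrays against 2 separate more easily. With the marked spots kept, an alternative chosen after seeing the data, the change was -1.36 in NrasG12D/+ and -0.85 (SE 0.94) in NrasG12D/G12D, each against Nras+/+, and 0.52 (SE 0.85) between NrasG12D/G12D and NrasG12D/+. With the marked spots left out, the change was -0.84 without NrasG12D/+ replicate 1 and -2.71 without replicate 2, each from a single NrasG12D/+ array against 2 Nras+/+ arrays, and that lone array is assumed to vary like the other groups.

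The Bmi1 probe nearer the transcript's start, A_51_P121547, ran another way. Its signal was 10.1, 4.47 and 6.28 in NrasG12D/G12D, none above background, against 37.5, 229 and 4.68 in NrasG12D/+ and 9.99 and 5.75 in Nras+/+. The NrasG12D/+ replicates 1 and 2 and Nras+/+ replicate 1 were above background. Fitted by itself, this probe differed by -2.14 (SE 1.06) between NrasG12D/G12D and NrasG12D/+, with a floor-based fold of 2.73 and a limma adjusted p of 0.788. In NrasG12D/+ against Nras+/+ it was at 1.54 (SE 1.18), the opposite sign to the brighter probe's -1.78.

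Asxl1, the cofactor of the H2A deubiquitinase Bap1, owed its brightest reading to a single array. The probe A_52_P123238 gave 706, 6.10 and 2.66 in NrasG12D/G12D, 13.8, 2.28 and 5.98 in NrasG12D/+, and 21.5 and 4.16 in Nras+/+. Replicate 1 of each genotype was above background and the other arrays were not. NrasG12D/G12D differed by 0.85 (SE 1.94) from Nras+/+ and by 2.22 (SE 1.74) from NrasG12D/+, with limma adjusted p of 0.907 and 0.847. Without NrasG12D/G12D replicate 1 these values were -1.38 and -0.01, and with normexp they were 0.66 and 1.29. On that array 3 tested endothelial and stromal markers summed to 11.7 times its 75th percentile, of which Col1a1 made 11.5, and to 0.301 and 0.0935 on the other NrasG12D/G12D arrays, 0.146 to 0.632 in NrasG12D/+ and 1.01 to 3.89 in Nras+/+. Cdh5 and Kdr were above background on no array, and the part of such cells in the Asxl1 value was not tested. NrasG12D/+ was at -1.36 (SE 1.94) against Nras+/+.

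The other Asxl1 probes did not share the 706 of NrasG12D/G12D replicate 1. A_52_P549405 gave 3.07 there and was above background on NrasG12D/+ replicate 1 alone, at 13.4. The third Asxl1 probe ranged from 1.70 to 2.36 over all arrays and was never above background.

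Dnmt1, the maintenance methyltransferase, was detected on mutant arrays only. Its signal was 70.2, 7.41 and 7.61 in NrasG12D/G12D, 211, 21.4 and 6.31 in NrasG12D/+, and 6.57 and 3.68 in Nras+/+. NrasG12D/G12D replicate 1 and NrasG12D/+ replicates 1 and 2 were above background, while the other 5 arrays were not. After scaling, Dnmt1 averaged -3.63 ± 1.43 in NrasG12D/G12D (SD, n = 3), -2.92 ± 1.91 in NrasG12D/+ (n = 3) and -4.91 ± 0.07 in Nras+/+ (n = 2).

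Scaled Dnmt1 values of both mutant genotypes lay above both Nras+/+ values, as for 6.05% of all genes in NrasG12D/G12D and 8.92% in NrasG12D/+, although the unscaled 6.31 of NrasG12D/+ replicate 3 lay between the Nras+/+ signals. The fitted change was 1.29 (SE 1.21, limma adjusted p = 0.784) in NrasG12D/G12D, with a floor-based fold of 1.40. It was 2.0 (SE 1.21, limma adjusted p = 0.812) in NrasG12D/+, with a floor-based fold of 2.29, and 0.91 there without NrasG12D/+ replicate 1. Without NrasG12D/G12D replicate 1, the change in NrasG12D/G12D was 0.47. With normexp background correction the changes fell short of these folds, at 0.13 in NrasG12D/G12D and 0.35 in NrasG12D/+. Between NrasG12D/G12D and NrasG12D/+ the value was -0.71 (SE 1.08). It had the other sign within slide 2 (0.72) and without NrasG12D/+ replicate 1 (0.38).

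The highest Dnmt1 signal stood on NrasG12D/+ replicate 1, the array with the extreme Mpo, S100a9 and Mcm5 signals. Summed over the tested genes in multiples of the array's 75th percentile, 6 myeloid progenitor markers came to 166 there and 0.740 to 11.3 on the other arrays, of which Mpo alone made 164 there. The 3 tested neutrophil markers came to 71.1 there, with 71.0 from S100a9, and 0.0588 to 0.578 on the others, and S100a8 and Camp were above background on no array. The 9 tested cell cycle genes came to 127 there, with 125 from Mcm5, and 0.801 to 15.5 on the others.

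Most of each of these sums came from a single gene. Without Mpo the myeloid progenitor sum was 2.23 on that array and 0.393 to 6.66 on the others. Without S100a9 the neutrophil sum was 0.05, beside 0.0473 to 0.515, and without Mcm5 the cell cycle sum was 2.71, beside 0.760 to 15.4. That array had the highest scaled level of 3 of the 6 myeloid progenitor markers. It also did for 1 of the 3 neutrophil markers and 2 of the 9 cell cycle genes. Csf1r was at 485 there (16.5 to 61.3 on the others), Elane at 55.3 (3.28 to 20) and Mcm7 at 744 (1.93 to 24.4). Ngp (6.13) and Mcm4 (61.4) had their lowest signal of the 8 arrays there. By group, the whole myeloid progenitor sum ranged from 0.740 to 11.3 in NrasG12D/G12D, 1.26 to 166 in NrasG12D/+, and 1.39 to 1.53 in Nras+/+. The part of cells with these transcripts in the Dnmt1 values was not tested.

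Dnmt3b, a de novo methyltransferase, was above background on that array alone. Its signal was 2.73, 2.63 and 2.12 in NrasG12D/G12D, 118, 1.90 and 2.29 in NrasG12D/+, and 2.06 and 1.97 in Nras+/+. With 1 array above background it was not tested.

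**Figure D2:**
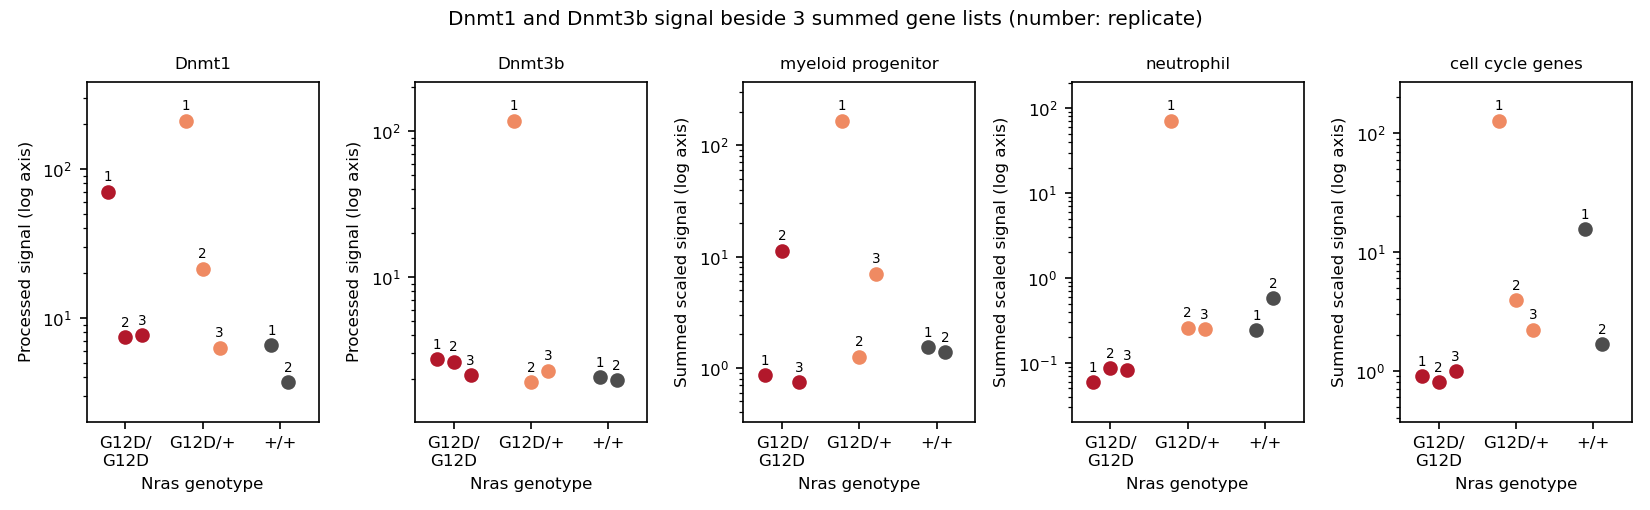
Processed signal of Dnmt1 and Dnmt3b, and the summed scaled signal of the 6 tested myeloid progenitor markers, 3 tested neutrophil markers and 9 tested cell cycle genes, on each array by Nras genotype (log axes, 1 point per array, numbered by replicate). NrasG12D/+ replicate 1 is the highest point in all 5 panels, and Mpo, S100a9 and Mcm5 make nearly all of its 3 sums.

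Dnmt3a, the other de novo methyltransferase and a frequent target of mutation in human clonal blood disorders, was measured on all 8 arrays by A_52_P76146. Its signal was 37.0, 14.8 and 63.0 in NrasG12D/G12D, 85.7, 104 and 20.1 in NrasG12D/+, and 26.1 and 14.9 in Nras+/+. The unscaled groups overlapped. Scaled, it averaged -2.59 ± 0.93 in NrasG12D/G12D (SD, n = 3), -2.03 ± 0.64 in NrasG12D/+ (n = 3) and -2.91 ± 0.05 in Nras+/+ (n = 2), and all 3 NrasG12D/+ values lay above both Nras+/+ values, as for 8.92% of all genes.

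For Dnmt3a the fitted change was 0.32 (SE 0.80, limma adjusted p = 0.915) in NrasG12D/G12D and 0.88 (SE 0.80, limma adjusted p = 0.817) in NrasG12D/+, each against Nras+/+. NrasG12D/G12D differed from NrasG12D/+ by -0.55 (SE 0.72), and by 0.08 within slide 2. Without NrasG12D/G12D replicate 3 its change against Nras+/+ was -0.20. With normexp the changes against Nras+/+ were 0.026 in NrasG12D/G12D and 0.20 in NrasG12D/+. A second Dnmt3a probe, A_52_P169048, gave 52.7 on NrasG12D/G12D replicate 3 and 1.84 to 2.65 on the other 7 arrays, and the third was above background on none.

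Tet2, the methylcytosine dioxygenase, was near the detection limit. The brighter of its probes gave 5.36, 3.22 and 4.32 in NrasG12D/G12D, against 11.2, 7.51 and 10.8 in NrasG12D/+ and 5.96 and 10.5 in Nras+/+. Only NrasG12D/+ replicate 1 and Nras+/+ replicate 2 were well above background. Every unscaled NrasG12D/G12D signal was below every other, a split whose share over all genes was not computed. The fitted change in NrasG12D/G12D was -1.31 (SE 0.81, limma adjusted p = 0.732) against Nras+/+ and -0.96 (SE 0.73, limma adjusted p = 0.846) against NrasG12D/+. Scaled values overlapped in neither pair, as for 23% and 8.73% of all genes in that direction. No member lay wholly higher in NrasG12D/G12D than in NrasG12D/+, where 2.9% of all genes did. No fold bound could be given, because the brighter means did not exceed the detection floor.

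NrasG12D/+ was at -0.35 (SE 0.81) against Nras+/+ for Tet2, and at 0.43 without Nras+/+ replicate 2. With the slide as a block the NrasG12D/G12D change was -2.82 against Nras+/+, and within slide 2 it was -1.97 against NrasG12D/+. With normexp background correction NrasG12D/G12D was at -0.42 against Nras+/+ and at 0.03 against NrasG12D/+.

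**Figure D3:**
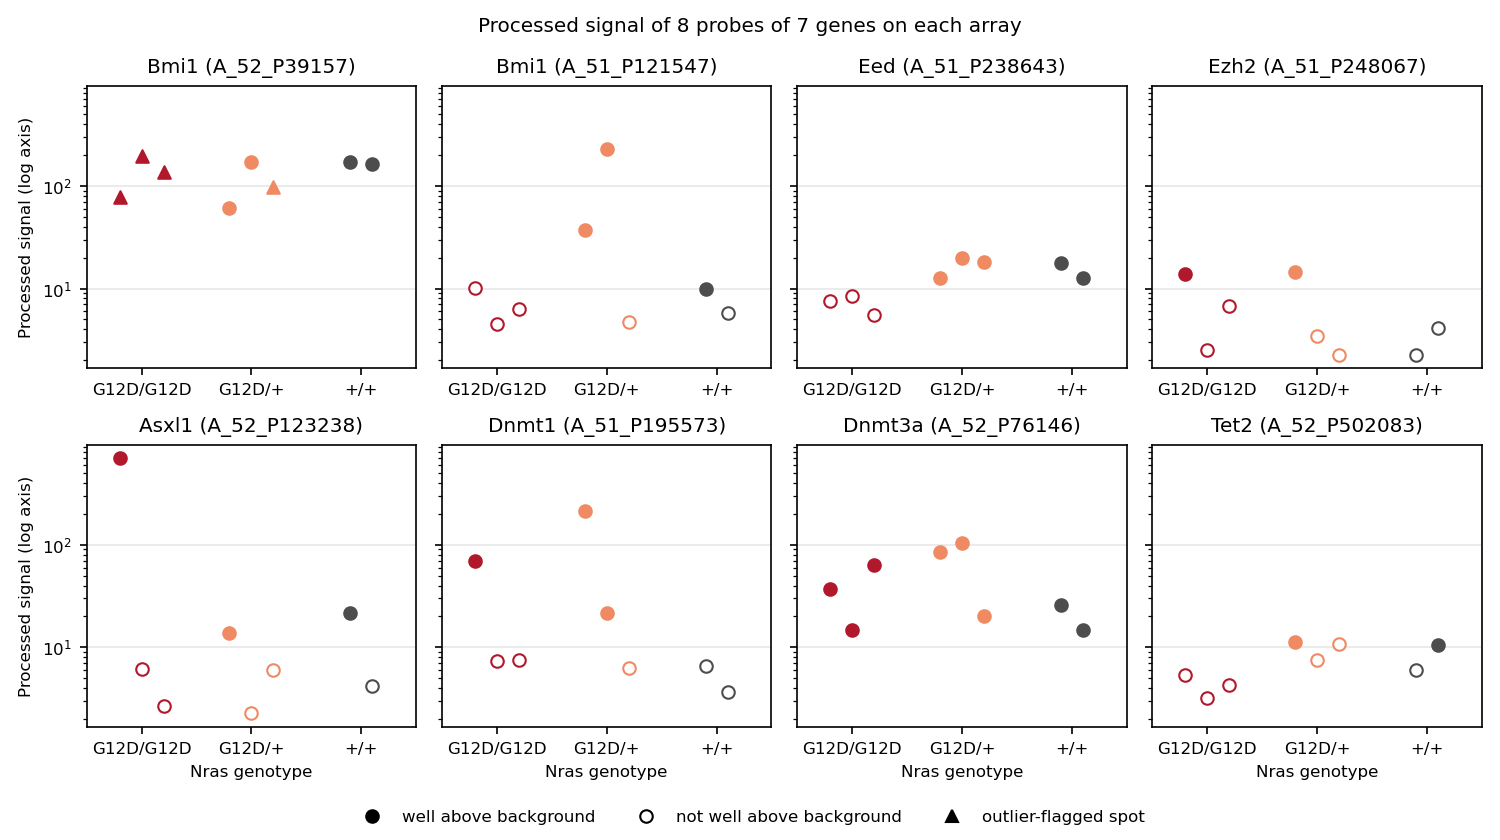
Processed signal (log axis, not scaled between arrays) of the 7 tested probes and the second Bmi1 probe, 1 point per array, by Nras genotype. Open points are not well above background and triangles are spots marked as outliers: the NrasG12D/G12D points of Eed and Tet2 are all open and lie below those of the other genotypes. Scaled Eed values of NrasG12D/G12D and NrasG12D/+ overlapped.

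**Figure D4:**
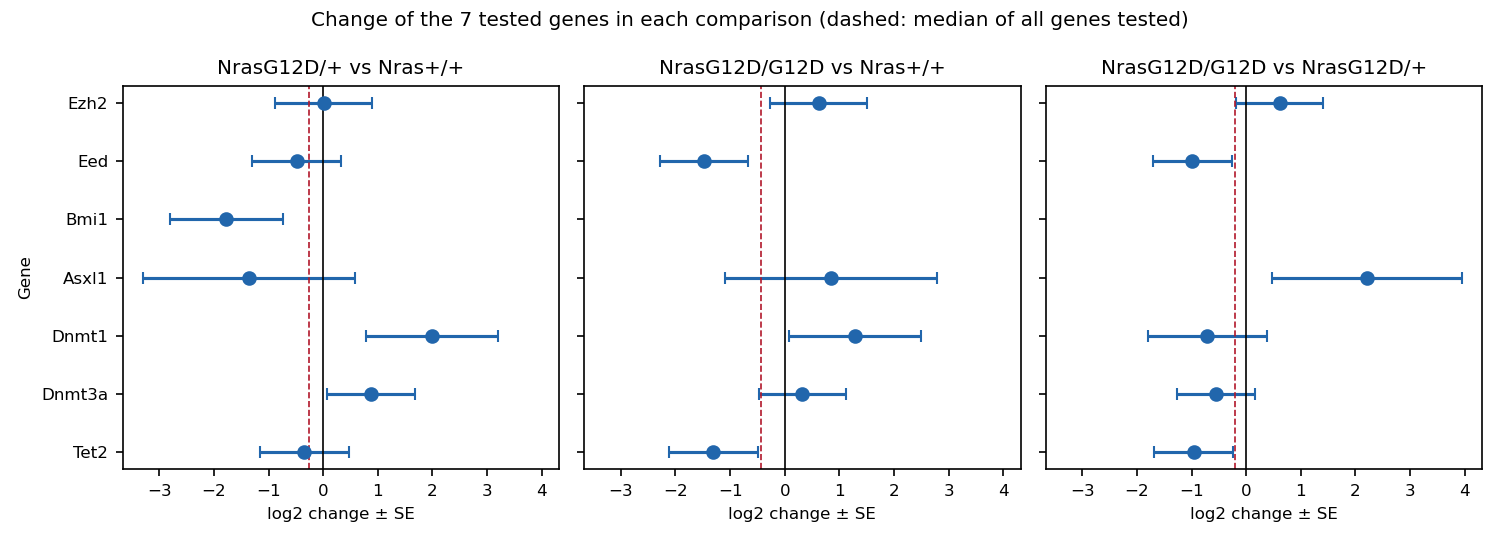
Fitted log2 change of the 7 tested genes in each comparison (points) with its standard error (bars), beside 0 (solid line) and the median of all genes tested (dashed line). Bmi1 has no value where NrasG12D/G12D is compared, and the changes run from -1.78 for Bmi1 to 2.22 for Asxl1.

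The wider complexes were read from lists of their other genes, chosen for their known roles. No gene of any list passed the adjusted threshold in any comparison, so the counts below are of higher or lower means, and genes are named by the lowest p in their list. Of 7 further PRC2 genes, 3 were tested. Jarid2, an accessory factor that brings PRC2 to its targets, was at -1.67 (SE 0.76) in NrasG12D/G12D and -1.33 (SE 0.69) in NrasG12D/+, each against Nras+/+. Its NrasG12D/G12D value rests on replicates 1 and 3, since the spot of replicate 2 was marked as an outlier. The signal there, 53.6, was the highest of the 8 arrays, above the 39.4 and 24.3 of Nras+/+. Phf19, which binds methylated histone H3 and PRC2, had signals of 4130, 34.9 and 18.0 in NrasG12D/G12D, 18.5, 22.5 and 2.57 in NrasG12D/+, and 23.9 and 6.48 in Nras+/+. Its value of 3.99 (SE 1.67, limma adjusted p = 0.802) between NrasG12D/G12D and NrasG12D/+ drew on the array that also held the Asxl1 signal of 706.

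Of 22 further PRC1 genes, 16 were tested, and 8 had a higher mean in NrasG12D/G12D and 7 in NrasG12D/+ than in Nras+/+. The shares over all genes were 35.5% and 41.7%. Pcgf5, a ring finger subunit of the same family as Bmi1, had signals of 101, 42.6 and 4.17 in NrasG12D/G12D, 131, 50 and 74.2 in NrasG12D/+, and 3.21 and 1.80 in Nras+/+. It was above background on 2 NrasG12D/G12D arrays, all NrasG12D/+ arrays and no Nras+/+ array, and the scaled values of each mutant genotype lay above those of Nras+/+, as for 6.05% of all genes in NrasG12D/G12D and 8.92% in NrasG12D/+. The change was 3.05 (SE 1.21) in NrasG12D/G12D, with a floor-based fold of 2.32, and 4.39 (SE 1.21) in NrasG12D/+, at least 5.89-fold higher. Their limma adjusted p were 0.726 and 0.812. Of the 16 genes, Pcgf5 alone passed an unadjusted p of 0.05 in these comparisons, beside 1.33% of all genes upward and 5.15% downward in NrasG12D/G12D, and 2.31% and 2.39% in NrasG12D/+.

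Between NrasG12D/G12D and NrasG12D/+, 6 of the 16 PRC1 genes had a higher mean, beside 42.3% of all genes. Ring1, a catalytic subunit, was at -2.92 (SE 1.07, limma adjusted p = 0.802), with a floor-based fold of 6.41. Its signals were 12.2, 11 and 5.91 in NrasG12D/G12D, 571, 108 and 9.13 in NrasG12D/+, and 21.2 and 9.47 in Nras+/+. The scaled values of the mutant genotypes overlapped, with NrasG12D/+ replicate 3 at -3.81 and NrasG12D/G12D replicate 2 at -3.74. The chromodomain subunit Cbx6 was at -3.23 (SE 1.28), and its 838 on NrasG12D/+ replicate 3 was its highest signal. Among 5 genes of the deubiquitinase and the H3K27 demethylases, 4 were tested. Asxl3, a paralogue of Asxl1, was at -2.26 (SE 0.92) in NrasG12D/G12D and at -1.89 (SE 0.92) in NrasG12D/+, each against Nras+/+.

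The DNA methylation list held the readers, cofactors and other dioxygenases, and 11 of its 14 genes were tested. The mean was higher in 1 of 11 and lower in 10 of 11, both in NrasG12D/G12D and in NrasG12D/+ against the same Nras+/+ arrays. Of all genes, 35.5% had a higher mean in NrasG12D/G12D and 41.7% in NrasG12D/+. The median change was -1.45 in NrasG12D/G12D and -0.59 in NrasG12D/+, beside -0.44 and -0.26 for all genes, and none of the 11 had an unadjusted p under 0.05. Tet3, a dioxygenase of the Tet2 family, had signals of 540, 164 and 218 in NrasG12D/G12D, 364, 711 and 61.3 in NrasG12D/+, and 1370 and 294 in Nras+/+, with changes of -1.64 (SE 0.91) and -1.98 (SE 0.91).

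Several genes of that list were highest on Nras+/+ replicate 1, among them Tet3 at 1370, Tet1 at 944 and Uhrf1, the Dnmt1 partner, at 272. Without that array 2 of 11 had a higher mean in NrasG12D/G12D and 5 of 11 in NrasG12D/+. The count in NrasG12D/G12D was 5 of 11 with the deposited value table and 4 of 11 with a percentile taken over all probes, so the count moved with the scaling.

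Of 9 genes known as Polycomb targets, 6 were tested. Lin28b, a fetal RNA-binding protein, gave 369 and 1140 on NrasG12D/+ replicates 1 and 2 and 2.97 on replicate 3, against 2.40, 2.42 and 2.06 in NrasG12D/G12D and 1.90 and 1.74 in Nras+/+. Lin28b was at -5.32 (SE 1.62) between NrasG12D/G12D and NrasG12D/+, with a floor-based fold of 8.60. Between NrasG12D/+ and Nras+/+ it was at 5.25 (SE 1.81), with a floor-based fold of 8.07. Pax5, the B-lineage regulator, was detected on no Nras+/+ array. It was at 1.59 (SE 0.84) in NrasG12D/G12D, with a floor-based fold of 2.06, and at 2.01 (SE 0.84) in NrasG12D/+, at least 2.75-fold higher. Cdkn2b, a cell cycle inhibitor, was at -1.74 (SE 0.78) in NrasG12D/G12D. The limma adjusted p of each of these changes was between 0.726 and 0.812.

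Of the 14 cell cycle genes, 9 were tested. The mean was higher in 3 of 9 in NrasG12D/G12D and in 6 of 9 in NrasG12D/+, each against Nras+/+, beside 35.5% and 41.7% of all genes. Pcna, the sliding clamp of DNA replication, was at -2.85 (SE 0.96) in NrasG12D/G12D and -2.90 (SE 0.96) in NrasG12D/+, at least 6.18-fold lower in the second. The limma adjusted p for Pcna were 0.726 and 0.812. Of the helicase subunits in NrasG12D/+, Mcm5 was at 3.63 (SE 2.74), Mcm7 at 2.22 (SE 1.54) and Mcm6 at 1.82 (SE 0.96). Mcm4 was at -2.88 (SE 1.37). Single arrays carried some of these values. Mcm5 read 44200 on NrasG12D/+ replicate 1, and 14.8 and 23.3 on replicates 2 and 3, beside 16.1 and 10.2 in Nras+/+. Mcm7 read 744, 16 and 9.57 in NrasG12D/+, beside 23 and 1.93 in Nras+/+. For Mcm4, Nras+/+ replicate 1 read 2800 and replicate 2 read 77.9.

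**Figure D5:**
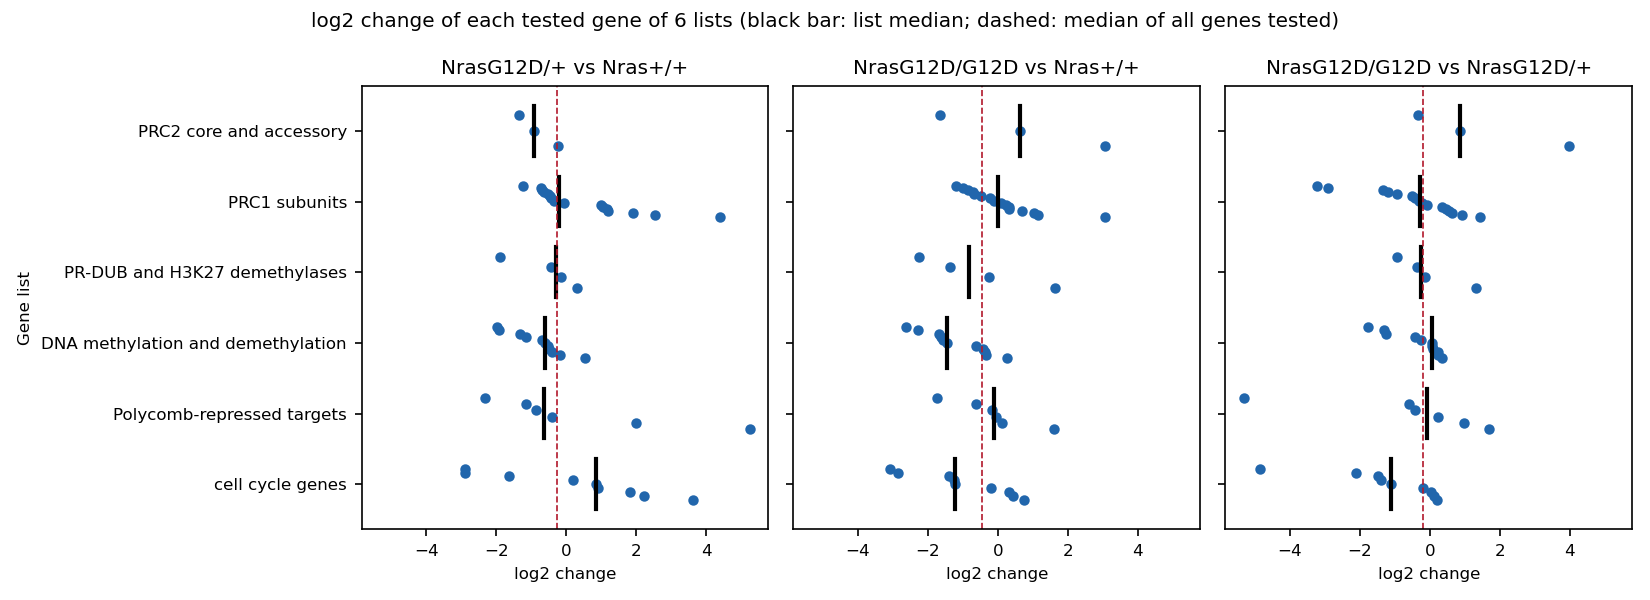
Fitted log2 change of each tested gene (points) of 6 lists, with the list median (black bar) and the median of all genes tested (dashed line), in the 3 comparisons. In the DNA methylation list 10 of 11 points lie below 0 in both comparisons with Nras+/+. Of all genes, 35.5% had a higher mean in NrasG12D/G12D and 41.7% in NrasG12D/+.

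Of the members, only Bmi1 and Dnmt3a had a tested probe above background on all 8 arrays. Their patterns were compared with those of the 5997 genes above background on all arrays, with marked spots kept. Every slide 2 value of Bmi1 came from a spot marked as an outlier and left out of the fit. Pearson's r, given as a description over arrays that share genotype and slide, was highest with Tmem44 (0.994) and AK081111 (0.993) for Bmi1, and with Parp3 (0.968) and Ppm1f (0.923) for Dnmt3a. Between Bmi1 and Dnmt3a it was -0.334.

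The promoters of the members are rich in CpG, the dinucleotide that DNA methylation acts on. In the RefSeq table of build GRCm38.p6, 14 promoters matched the 10 genes, each window being 300 bases around a start. Their median GC content was 68% (51.3% to 82.3%), beside 52.7% for all 32851 promoters. Their median number of CpG dinucleotides was 26.5 (2 to 57), beside 7 for all.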

How the data were processed

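The deposited scanner files are, per the file headers, output of Agilent Feature Extraction 10.5.1.1. The processed signal is an intensity from which the software had taken the background and spatial trends, array by array, per the file headers. The mean signal and local background intensities were used in 1 alternative. Per the file headers, 0 or 1 marks a spot that is saturated, outlying or well above background. The deposited value table is a ratio, the processed signal over each array's median, and was used as an alternative.

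Outlier spots were set to missing. Log2 signals were averaged per probe, and each array was scaled to the 75th percentile of the 6576 probes that all 8 arrays detected. The tests were two-sided, from limma 3.58.1 in R 4.3.3 (lmFit, then eBayes) with a common spread for the 3 genotypes. Benjamini-Hochberg adjustment ran over the whole set of tested genes, with a threshold of 0.05. The script was tested on simulated data for NrasG12D/G12D against Nras+/+. It recovered 6% of genes given a log2 change of 3 and 74% of those given 6, with 3 false calls. Alternatives covered scaling, background, filters, probes, slide, array weights, replicate numbers and left-out arrays. The labels do not say whether replicate numbers pair the samples. Deviations of same-numbered arrays correlated at -0.088 to 0.075, and with 2 or 3 arrays per genotype this cannot exclude a pairing. The members, the gene lists and the rule for named genes (every member, and the lowest p of each list, up to 2 per comparison) were chosen with earlier results of these data known. Genes outside that rule (Uhrf1, Mcm7 and the cell type markers Mpo, Csf1r, Elane, S100a9, Ngp and Col1a1) were named after their values were seen. Probes were named through accession, symbol or synonym in a RefSeq table. The number of arrays limits the precision.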

Additional observations from a re-analysis of the deposited data

How the results depend on the processing

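Of 397 alternative values for the 19 log2 changes of members, 379 kept their sign and 18 reversed. The 379 does not measure robustness, since some alternatives could not change the estimate. Leaving out an array of the genotype not compared returned the main value, as did fitting only the 2 groups compared. For NrasG12D/+ against Nras+/+, the slide block, slide 1 alone and leaving out NrasG12D/+ replicate 3 gave a single estimate (0.14 for Ezh2). None of the 397 values passed the adjusted threshold, and the lowest adjusted p was 0.544. For NrasG12D/+ against Nras+/+, Ezh2 was at -0.47 with normexp and -0.19 with array weights, and leaving out 1 array gave -0.80 to 0.83 for Ezh2, -0.98 to 0.018 for Eed and -1.12 to 0.43 for Tet2. Without Nras+/+ replicate 1 Ezh2 was at -0.80 and without NrasG12D/+ replicate 1 at -0.47. For NrasG12D/G12D against Nras+/+, Ezh2 was at -0.18 with normexp and Asxl1 at -0.51 with the slide block, while leaving out 1 array gave -0.19 to 1.44 for Ezh2, -1.38 to 2.35 for Asxl1 and -0.20 to 0.69 for Dnmt3a. For NrasG12D/G12D against NrasG12D/+, Tet2 was at 0.031 with normexp, and with the slide block and within slide 2 Dnmt1 was at 0.72 and Dnmt3a at 0.085. Leaving out 1 array gave -1.53 to 0.38 for Dnmt1 and -0.014 to 3.71 for Asxl1. The cause of these reversals was not tested.

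The number of genes past the threshold was 0 in each comparison. For NrasG12D/+ against Nras+/+ it was 1 with the all-probe percentile, quantile normalization, the value table, no filter, the mean of probes or array weights, and 0 to 10 on leaving out 1 array, with 10 without Nras+/+ replicate 2. For NrasG12D/G12D against Nras+/+ it was 1 with quantile normalization, no filter, the mean of probes, the slide block, array weights or only these 2 groups, and 0 to 9 on leaving out 1 array, with 9 without Nras+/+ replicate 2. Between NrasG12D/G12D and NrasG12D/+ it was 5 with the slide block and 0 to 2 on leaving out 1 array.

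The members with a higher mean numbered 2 to 4, 3 to 4 and 1 to 3 in the 3 comparisons on leaving out 1 array. With the filter on all 8 arrays they numbered 1, 1 and 0, since fewer genes were tested, and with the slide block and within slide 2 the last comparison had 4. Of 390 alternative counts for the pathway lists, 97 moved by over 1.5 times. The mean of both Bmi1 probes (-2.84 for NrasG12D/G12D against Nras+/+) sets the dim probe alone against both, by its construction. The replicate block, with numbers not known to pair the samples, left 0 genes past the threshold in each comparison, with 1000, 1112 and 920 at an unadjusted p under 0.05. With that block Dnmt1 was at 2.59 (SE 0.90) in NrasG12D/+ against Nras+/+, with a limma unadjusted p of 0.0263 and adjusted p of 0.653. Signals near background limit Ezh1, Suz12, Dnmt3b, Ezh2, Asxl1, Dnmt1 and Tet2 to bounds on most arrays.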
